A study of Mus musculus with 6 samples.

Results

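The genes described here are the 10 that encode transforming growth factor beta (TGF-beta) ligands (Tgfb1, Tgfb2, Tgfb3), the latent TGF-beta binding proteins (Ltbp1, Ltbp2, Ltbp3, Ltbp4) and the TGF-beta receptors (Tgfbr1, Tgfbr2, Tgfbr3). They were chosen by gene symbol, and each of the 10 had a row among the 19865 symbols of the count tables. Expression was measured by 3'SAGE-seq, which counts short tags near the 3' end of polyadenylated transcripts, in 3 libraries of trSrebf1 fibroblasts and 3 libraries of control fibroblasts. The comparison asks what Srebf1, a transcription factor of lipid synthesis, changes in fibroblasts of an injured lung when its active form is supplied.

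Both groups were primary lung fibroblasts of Col1a2-GFP transgenic mice, in which a green reporter follows the collagen promoter of Col1a2. The trSrebf1 cells carried a retroviral vector for the active form of Srebf1c, which doxycycline switches on, and the control cells carried the control vector. Cells of both groups were marked by the human receptor LNGFR and placed in the trachea of C57BL/6 mice 5 days after these had received bleomycin (2 mg/kg), whose lung injury ends in fibrosis. Doxycycline is recorded for both groups from day 7, and donor cells were recovered on day 10. The sort took live cells with both reporter and LNGFR signal and without Ter119, CD146, CD45, EpCAM or CD31, so donor cells without reporter signal were not measured. The sources used here do not give animal ages, the number of mice behind a library or whether replicates came from separate cultures, and p-values therefore measure only how far these libraries vary, which may be technical.

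Cells secrete TGF-beta in a latent form. The ligand stays bound to its own propeptide, and this complex is linked to a latent TGF-beta binding protein that anchors it to fibrillin and fibronectin in the matrix. Integrins, proteases or thrombospondin release the ligand, which binds the type II receptor Tgfbr2. Tgfbr2 then activates the type I receptor Tgfbr1, and Tgfbr1 phosphorylates Smad2 and Smad3. Tgfbr3 (betaglycan) is a coreceptor that presents ligand, above all TGF-beta 2, to Tgfbr2. In the lung this pathway is known for turning fibroblasts into contractile, matrix-producing myofibroblasts.

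Promoter sequence was available for 8 of the 10 genes from RefSeq (GRCm38.p6), as 12 windows of 300 bases. Tgfb3 and Tgfbr3 had no entry. The windows were searched on both strands for the sterol-response motif TCACNCCAC and the E-box CACGTG, which are the kinds of site that Srebf1 proteins bind, and, after the results were seen, for the GC box GGGCGG and the TATA motif TATAAA. Of the 12 windows, 0 held TCACNCCAC, which 1.24% of all 32851 promoters in the table held. A single window, that of Tgfb2, held an E-box, which 7.15% of all promoters held. The Tgfb1 and Tgfb2 promoters are shown because these windows of ligand genes hold different motifs. A difference between their responses was not tested. Each runs 5′ to 3′ in the direction of the gene, and capitals mark the motif matches, which do not overlap.
Tgfb1 (chr7:25686752-25687051, plus strand): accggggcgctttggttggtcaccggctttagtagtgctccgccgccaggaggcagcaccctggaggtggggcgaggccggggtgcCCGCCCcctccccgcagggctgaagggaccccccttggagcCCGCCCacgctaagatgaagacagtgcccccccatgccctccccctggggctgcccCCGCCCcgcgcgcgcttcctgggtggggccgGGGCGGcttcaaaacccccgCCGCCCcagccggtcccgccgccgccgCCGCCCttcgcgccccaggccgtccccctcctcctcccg
Tgfb2 (chr1:186705940-186706239, minus strand): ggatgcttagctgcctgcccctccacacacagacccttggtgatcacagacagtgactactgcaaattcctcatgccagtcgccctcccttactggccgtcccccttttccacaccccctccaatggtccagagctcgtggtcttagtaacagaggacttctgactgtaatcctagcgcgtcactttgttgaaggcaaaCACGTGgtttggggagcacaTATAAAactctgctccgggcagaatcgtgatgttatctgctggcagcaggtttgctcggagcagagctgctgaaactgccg
The Tgfb1 window had 6 GC boxes, a GC content of 77.0%, and no E-box or TATA match. The Tgfb2 window had a GC content of 54.3%, an E-box at -51 and a TATA match at -31, where 0 is the annotated start. GC boxes lay in 6 windows of 4 of the genes (Tgfb1, Ltbp2, Ltbp4 and Tgfbr1), and 35.7% of all promoters held one. TATA matches lay in 13.6% of all promoters. These matches describe the letters of the windows only.

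Library totals ranged from 4151691 to 4688196 counts in trSrebf1 and from 3675146 to 4134354 counts in control. Srebf1 tags, a check of the labels, numbered 133, 123 and 108 in trSrebf1 and 32, 20 and 33 in control libraries. Whether they stem from the transgene or from the cells' own gene is unknown. Srebf1 also shares 109 bases of its 3' end with Rai1 on the opposite strand, so its count is uncertain. Of 10194 genes that passed the filter on low counts, 30.2% differed between the groups (quasi-likelihood test of edgeR, with p under 0.05 after Benjamini-Hochberg adjustment), 17.2% higher and 13.0% lower in trSrebf1. The protease Ctsd took 6.53% to 6.81% of the counts in trSrebf1 libraries and 0.860% to 0.953% in control libraries. Listed fibroblast markers were all detected, and 7 of 9 were lower and 1 higher in trSrebf1. Their summed level was 30786 to 35508 CPM (tags relative to the library total, scaled with TMM factors) in trSrebf1 and 42575 to 54864 CPM in control. In sorted bulk cells, fewer cells of a type and less RNA per cell cannot be told apart.

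All 10 genes passed the filter, and 9 of them differed between the groups. Tgfb1 rose, while Tgfb3, the 4 latent binding proteins and the 3 receptors fell. Tgfb2 did not pass the threshold. The count of 1 higher and 8 lower stands beside 17.2% higher and 13.0% lower among all tested genes. The median log2 fold change, trSrebf1 over control, was -0.75 for the 10 genes and -0.01 for all tested genes. The trSrebf1 and control libraries did not overlap for 9 of the 10 genes, against 43.4% of all tested genes. In 8 of these the trSrebf1 libraries were the lower ones (20.2% of all tested genes) and in 1 the higher ones (23.1%).

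**Figure D1:**
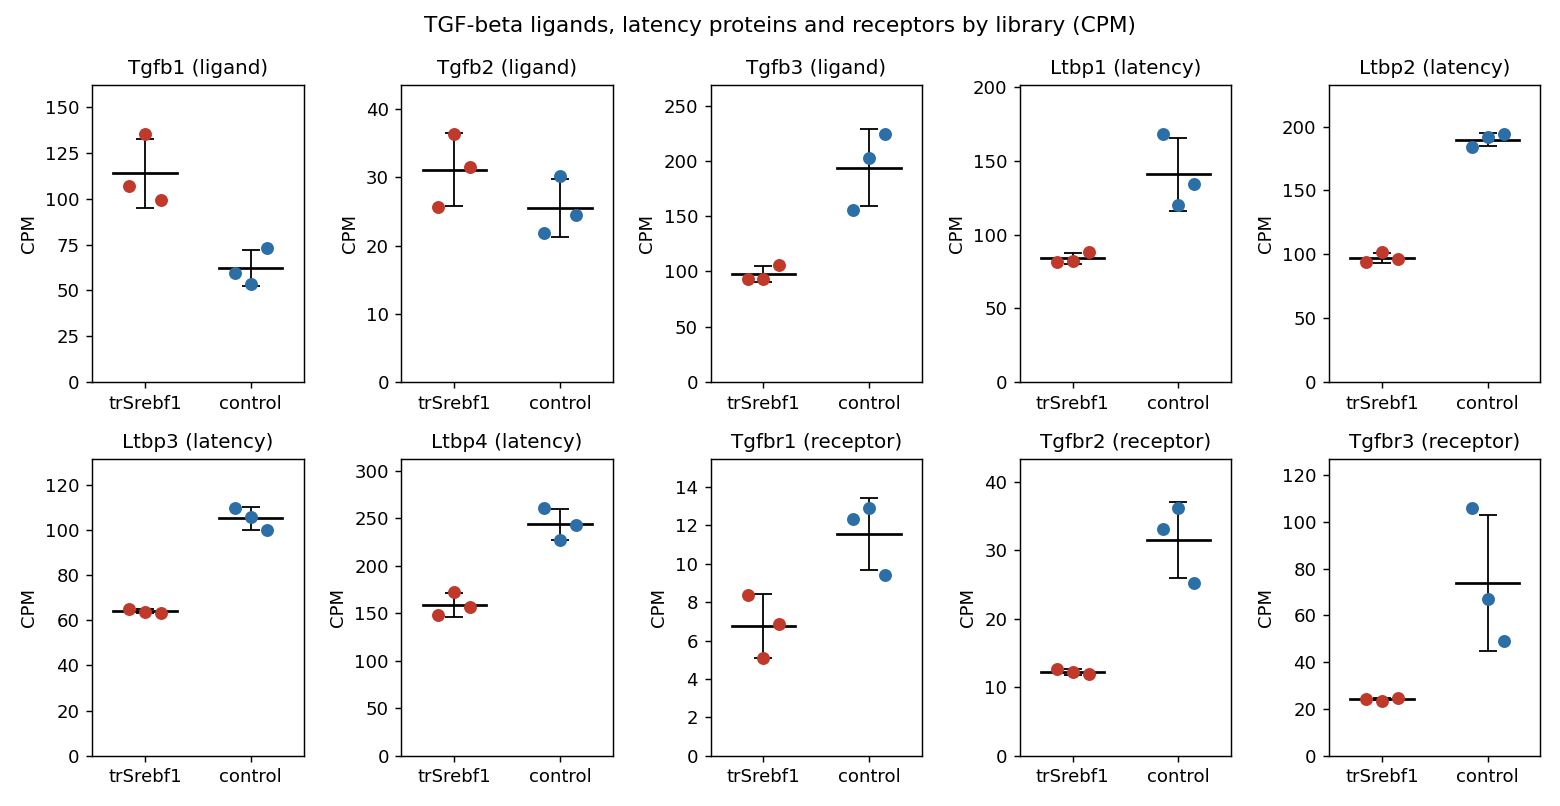
Level of each of the 10 genes in CPM (vertical axes, from 0) in each trSrebf1 library (red, left) and control library (blue, right); the bar is the mean and the whisker 1 SD, n = 3 each. Tgfb1 lay higher in every trSrebf1 library, Tgfb2 overlapped, and the other 8 genes lay lower in every trSrebf1 library than in any control library.

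The ligand genes went in different directions. Tgfb1 (chromosome 7, 25687002 to 25705077, plus strand) encodes the isoform most studied in fibrosis. It stood at 107, 135 and 99.4 CPM in trSrebf1 libraries and at 59.8, 53.7 and 73.4 CPM in control libraries. Every trSrebf1 library was above every control library, with trSrebf1 replicate 2 highest. The mean was 114 ± 18.9 CPM in trSrebf1 and 62.3 ± 10.1 CPM in control (SD, n = 3 each), a 1.83-fold rise with a 95% interval of 1.46 to 2.28. The log2 fold change was 0.87 (SE 0.15, edgeR adjusted p = 2.38e-04). Of all tested genes, 88.1% had a log2 fold change as low as or lower than that of Tgfb1.

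Tgfb3 (chromosome 12, 86056745 to 86079041, minus strand) encodes an isoform that binds the same receptors. It stood at 93.3, 93.1 and 106 CPM in trSrebf1 libraries and at 155, 202 and 224 CPM in control libraries. The groups did not overlap, and the trSrebf1 libraries lay closer together than the control libraries. Tgfb3 fell by 0.99 on the log2 scale (SE 0.13, edgeR adjusted p = 1.89e-05), to 97.5 ± 7.36 CPM in trSrebf1 against 194 ± 35.1 CPM in control (SD, n = 3 each).

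The opposite changes of Tgfb1 and Tgfb3 transcripts can be restated as a ratio within single libraries. Ligand protein was not measured. Tags of Tgfb1 per tag of Tgfb3 came to 1.15, 1.45 and 0.938 in trSrebf1 libraries and 0.385, 0.265 and 0.328 in control libraries. A ratio between genes also depends on how well each 3' end is captured, so only its difference between libraries is read here. The summed level of the 3 ligand genes was 226 to 265 CPM in trSrebf1 and 237 to 322 CPM in control, with overlapping groups.

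Tgfb2 (chromosome 1, 186622792 to 186705989, minus strand) encodes the isoform that depends most on betaglycan for receptor binding. It stood at 25.6, 36.3 and 31.5 CPM in trSrebf1 libraries and at 21.8, 30.2 and 24.5 CPM in control libraries. The groups overlapped, since trSrebf1 replicate 1 lay below control replicate 2. The log2 fold change was 0.28 (SE 0.19, edgeR adjusted p = 0.284), and its 95% interval allows anything from a 0.927-fold to a 1.60-fold level. Tgfb2 had 83 to 143 tags per library. Counting alone gives a coefficient of variation of about 8.66% in trSrebf1 and 9.93% in control, and those observed were 17.2% and 16.8%.

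The latent binding proteins fell, 4 of 4, with log2 fold changes from -0.97 to -0.62. Ltbp2 (chromosome 12, 84783212 to 84876532, minus strand) binds fibrillin and elastic fibres, and unlike the other members of its family it does not bind latent TGF-beta. It stood at 93.8, 102 and 96.4 CPM in trSrebf1 libraries and at 184, 192 and 194 CPM in control libraries. Its spread was narrow in both groups, and the lowest control library was 1.81 times the highest trSrebf1 library. It fell by 0.97 on the log2 scale (SE 0.11, edgeR adjusted p = 2.18e-06), the smallest p among the 10 genes.

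Ltbp1 (chromosome 17, 75005568 to 75392512, plus strand) is the classic carrier of latent TGF-beta 1 in the matrix. It stood at 81.3, 82.2 and 87.9 CPM in trSrebf1 libraries and at 168, 120 and 135 CPM in control libraries. The control libraries were more spread, with control replicate 1 highest. Ltbp1 fell by 0.75 on the log2 scale (SE 0.13, edgeR adjusted p = 3.06e-04).

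Ltbp3 (chromosome 19, 5740904 to 5758532, plus strand) also carries latent ligand. It stood at 65.0, 63.4 and 63.3 CPM in trSrebf1 libraries and at 110, 106 and 99.8 CPM in control libraries. The trSrebf1 libraries were almost level, with a coefficient of variation of 1.45%, below the 6.02% that counting alone gives on average. Ltbp3 fell by 0.72 on the log2 scale (SE 0.12, edgeR adjusted p = 1.88e-04). Part of its 3' end is also annotated on the opposite strand, and the use of strand in counting is not given, so its value is uncertain.

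Ltbp4 (chromosome 7, 27305136 to 27337692, minus strand), which binds latent TGF-beta 1 weakly and takes part in elastic fibre assembly, stood at 148, 172 and 157 CPM in trSrebf1 libraries and at 260, 227 and 242 CPM in control libraries. It fell by 0.62 on the log2 scale (SE 0.11, edgeR adjusted p = 2.85e-04). The 95% intervals of the 4 log2 fold changes all overlapped one another, from -1.20 for the low end of Ltbp2 to -0.39 for the high end of Ltbp4. Whether the 4 falls differed in size was not tested. Summed, the 4 genes stood at 388, 419 and 404 CPM in trSrebf1 libraries and at 722, 645 and 671 CPM in control libraries.

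All 3 receptor genes fell, and the strength of the evidence differed between them. Tgfbr3 (chromosome 5, 107106570 to 107289629, minus strand), the coreceptor betaglycan, stood at 24.3, 23.6 and 24.7 CPM in trSrebf1 libraries and at 106, 67.1 and 49.1 CPM in control libraries. The trSrebf1 libraries were nearly equal, while the control libraries had a coefficient of variation of 39.3%, with control replicate 1 far above the others. In trSrebf1 it was 2.24%, below the 9.77% that counting alone gives on average. Tgfbr3 fell by 1.61 on the log2 scale (SE 0.24, edgeR adjusted p = 1.62e-04), to 32.8% of the control level. Of all tested genes, 1.88% had a log2 fold change as low or lower. Without control replicate 1 its log2 fold change was -1.26. Tgfbr3 shares 297 exonic bases with Gm43422 on the same strand, 4 of them in its last 500 bases.

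Tgfbr2 (chromosome 9, 116084293 to 116175360, minus strand), the type II receptor that binds the ligand first, stood at 12.7, 12.2 and 11.9 CPM in trSrebf1 libraries and at 33.0, 36.1 and 25.2 CPM in control libraries. The lowest control library was 1.99 times the highest trSrebf1 library. Tgfbr2 fell by 1.36 on the log2 scale (SE 0.20, edgeR adjusted p = 3.87e-05), to 12.2 ± 0.411 CPM in trSrebf1 against 31.5 ± 5.61 CPM in control (SD, n = 3 each). The coefficient of variation in trSrebf1 was 3.35%, below the 13.7% that counting alone gives on average.

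Tgfbr1 (chromosome 4, 47353222 to 47414931, plus strand), the type I receptor kinase, had the fewest tags of the 10 genes. Its tags numbered 39, 20 and 30 in trSrebf1 libraries and 47, 50 and 40 in control libraries. In CPM these were 8.39, 5.08 and 6.85 in trSrebf1 and 12.3, 12.9 and 9.44 in control, so that the highest trSrebf1 library lay just under the lowest control library. Counting alone gives a coefficient of variation of about 18.4% in trSrebf1 and 14.8% in control at such depth, and those observed were 24.5% and 16.1%. Tgfbr1 fell by 0.76 on the log2 scale (SE 0.27, edgeR adjusted p = 0.0455), just past the threshold.

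The call of Tgfbr1 depended on the libraries and settings used. It was lost when trSrebf1 replicate 2 (edgeR adjusted p = 0.152) or 3 (0.0985) was left out, when control replicate 1 (0.102) or 2 (0.143) was left out, when the filter on low counts was dropped (0.0578) and under the Wald test of DESeq2 (DESeq2 adjusted p = 0.0854). Over all alternatives the adjusted p ranged from 0.0239 to 0.152. The direction was lower in trSrebf1 in each of the 15 alternatives, with a log2 fold change of -0.93 to -0.59.

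**Figure D2:**
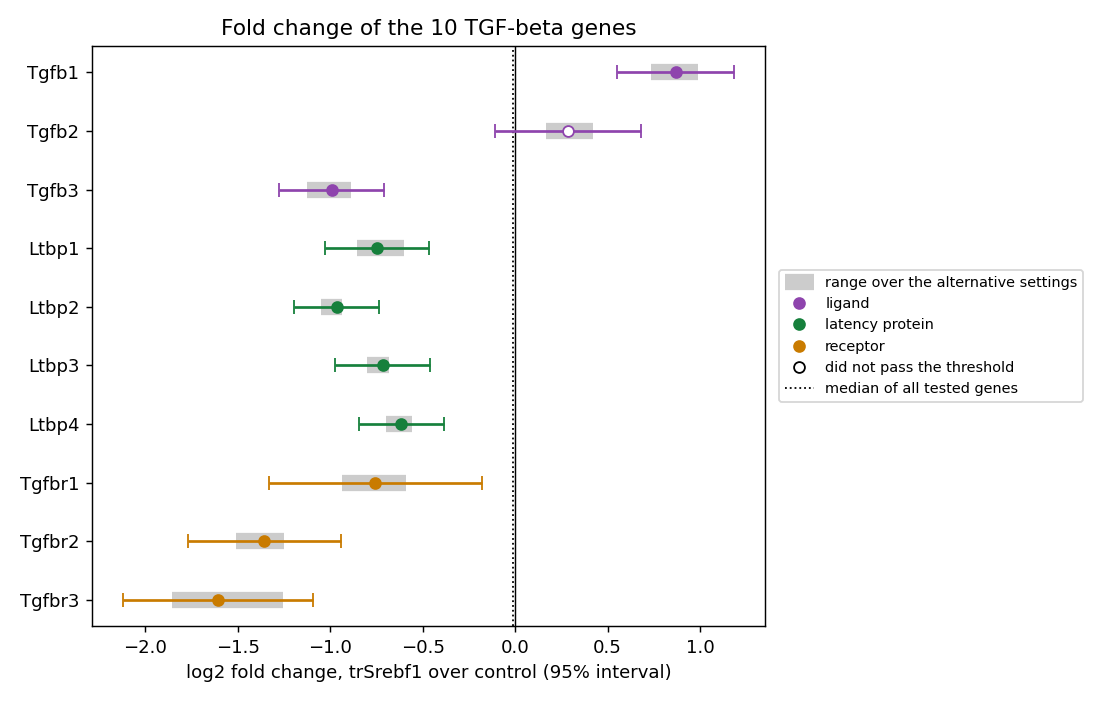
Log2 fold change of each gene, trSrebf1 over control (horizontal axis), with its 95% interval (whiskers) from the edgeR fit; the grey band is the range over 15 alternative settings, and the open point did not pass the threshold. Tgfb1 lies at 0.87 and the called falls lie between -1.61 for Tgfbr3 and -0.62 for Ltbp4.

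For the ligand, latency protein and receptor with the smallest p, the genes with the nearest profile were sought by Euclidean distance between centred log2(CPM + 1) values over the 6 libraries. Nearest to Tgfb3 were Tmem165, Gm12174 and Spats2l, at distances of 0.207, 0.215 and 0.224, where the median tested gene lay at 1.40. Nearest to Ltbp2 were Ctsf, Tmtc3 and Zfp36l1, at 0.164, 0.177 and 0.181. Nearest to Tgfbr2 were Eid1, Tmem98 and Ablim1, at 0.189, 0.223 and 0.223. That these genes were also lower in trSrebf1 follows from how they were chosen. Tmtc3 has a 3' stretch of 325 bases that is nearly identical in Gm6645, and its value is uncertain. So is that of Zfp36l1, whose 3' end overlaps Gm26669 on the opposite strand.

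Genes that hold or release latent TGF-beta fell more often than they rose. Of 25 listed genes 22 were tested, 11 fell and 5 rose, which is 50.0% lower and 22.7% higher beside 13.0% and 17.2% of all tested genes. The median log2 fold change was -0.41. Lrrc32 (GARP), which docks latent TGF-beta on the cell surface, averaged 129 ± 21.7 CPM in trSrebf1 and 408 ± 37.4 CPM in control (SD, n = 3 each), a fall of 1.66 on the log2 scale (SE 0.13, edgeR adjusted p = 2.75e-08). Fibrillin (Fbn1), the microfibril protein on which latent complexes are stored, fell by 1.11 (SE 0.11), and the activator thrombospondin (Thbs1) fell by 1.23 (SE 0.14).

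The 5 members that rose, of which all but Mmp9 were named after their values were seen, were proteases and integrin chains. Genes of both kinds were also among the falls, likewise named after their values were seen. The log2 fold changes were -0.78 (SE 0.11) for Mmp2, -0.47 (SE 0.11) for Mmp14, -1.26 (SE 0.38) for Plau and -1.90 (SE 0.25) for the convertase Pcsk5. That of the integrin chain Itga8 was -2.07 (SE 0.23). Mmp9, a gelatinase that can release latent ligand, averaged 59.1 ± 5.72 CPM in trSrebf1 and 2.06 ± 0.870 CPM in control (SD, n = 3 each). The proprotein convertase Furin, which cleaves the TGF-beta precursor, rose by 0.83 (SE 0.16), to 51.8 CPM in trSrebf1 against 29.0 CPM in control, with 118 bases at its 3' end shared with the antisense Gm44851. Integrin chains Itgb8 and Itgb3, whose pairings with Itgav bind the latent complex, rose by 0.95 (SE 0.18) and 2.14 (SE 0.47), and the plasminogen activator Plat rose by 0.75 (SE 0.11). Itgb3 had few tags, 23, 17 and 19 in trSrebf1 libraries and 5, 5 and 2 in control libraries. Itgav itself had a log2 fold change of -0.21 (SE 0.16, edgeR adjusted p = 0.340). Itgb6, the chain of the epithelial activating integrin, was among the 3 members below the filter. Over 15 alternatives the falls of this list numbered 10 to 13 and the rises 4 to 6. Plau lost its call without control replicate 3 (edgeR adjusted p = 0.111) or trSrebf1 replicate 3 (0.0719). The 3' end of Mmp14 holds a sequence repeated in other genes, and that of Pcsk5 matches Trim56 over 69 bases. Both counts are uncertain.

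Of the proteins that bind the ligand or modulate the receptors, 13 were tested, 9 fell (69.2%, beside 13.0% of all tested genes) and 0 rose (beside 17.2%), with a median log2 fold change of -0.66. At an unadjusted p under 0.05 edgeR also gave 0 higher, as did DESeq2 and limma-voom after adjustment. Over 15 alternatives the falls numbered 6 to 9. Bgn, Strap, Fkbp1a and Dab2 each lost their call when certain libraries were left out. Without trSrebf1 replicate 3 the edgeR adjusted p was 0.0897 for Bgn, 0.0668 for Fkbp1a and 0.0737 for Dab2. Without control replicate 1 it was 0.147 for Strap. The 3' end of Bgn holds a sequence repeated in other genes, so its count is uncertain. The proteoglycan decorin (Dcn), which binds TGF-beta, averaged 3376 ± 189 CPM in trSrebf1 and 7378 ± 550 CPM in control (SD, n = 3 each). Its relatives Fmod and Aspn fell by 1.28 (SE 0.15) and 1.55 (SE 0.30), and the coreceptor Cd109, which restrains TGF-beta signalling, fell by 0.78 (SE 0.11). The 4 that did not pass the threshold were the coreceptor Eng at 0.16 (SE 0.15), the decoy receptor Bambi at 0.14 (SE 0.11), Vasn at -0.11 (SE 0.23) and Tgfbrap1 at -0.17 (SE 0.42). Eng shares 61 bases of its 3' end with Fpgs on the opposite strand.

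The receptors of activins and BMPs are built like Tgfbr1 and Tgfbr2. Of 10 listed genes 8 had a row and were tested, 1 fell (12.5%, beside 13.0% of all tested genes) and 0 rose (beside 17.2%), with a median log2 fold change of 0.02. At an unadjusted p under 0.05 edgeR gave 3 lower and 1 higher, and DESeq2 and limma-voom gave 0 higher after adjustment. The one that fell was the activin type I receptor Acvr1b, at 12.8 ± 4.82 CPM in trSrebf1 and 26.2 ± 1.36 CPM in control (SD, n = 3 each). Its log2 fold change was -1.03 (SE 0.24, edgeR adjusted p = 0.00253). The count of falls was 2 without trSrebf1 replicate 1, control replicate 2 or control replicate 3. The BMP type II receptor Bmpr2 had a log2 fold change of 0.14 (SE 0.10). Whether the TGF-beta receptors differ from these receptors as a group was not tested.

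**Figure D3:**
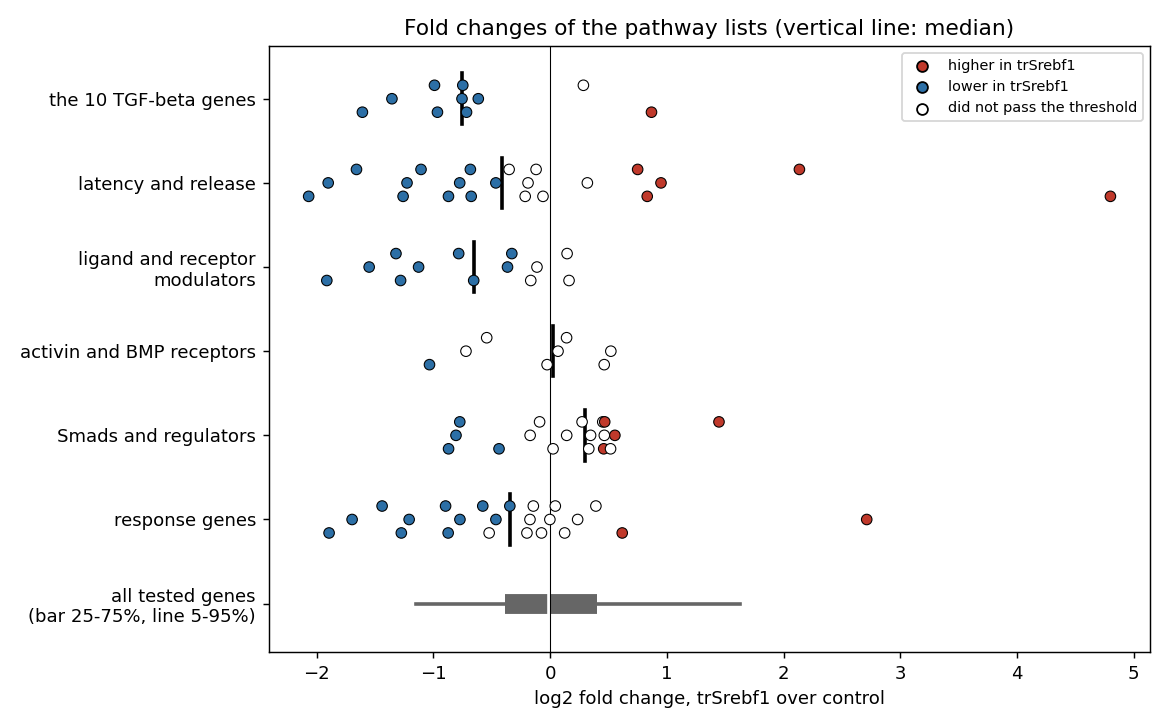
Log2 fold change, trSrebf1 over control (horizontal axis), of every tested gene of the 10 TGF-beta genes and of 5 pathway lists (rows; points are genes, vertical lines medians), with the spread of all tested genes at the bottom. The medians were -0.75 for the 10 genes, -0.41, -0.66, 0.02, 0.30 and -0.35 for the lists from top to bottom, and -0.01 for all tested genes.

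Smads and their regulators moved in both directions. Of 18 tested members 4 rose and 4 fell, 22.2% each beside 17.2% higher and 13.0% lower among all tested genes, and the median log2 fold change was 0.30. Smad4, the partner shared by all receptor-activated Smads, averaged 255 ± 26.6 CPM in trSrebf1 and 174 ± 23.7 CPM in control (SD, n = 3 each), and the phosphatase Ppm1a, which acts on Smad2 and Smad3, rose by 0.46 (SE 0.11). The feedback genes Smad7 and Skil, both induced by TGF-beta, fell by 0.87 (SE 0.14) and 0.77 (SE 0.16). Named after their values were seen, Smad6 and Nedd4l were the others that rose and Ski and Tgif2 the others that fell, and each call was lost when certain libraries were left out. Without control replicate 2 the adjusted p was 0.0580 for Smad6, 0.0934 for Nedd4l, 0.0852 for Ski and 0.0831 for Tgif2, leaving 2 higher and 2 lower. Counts of Nedd4l, whose 3' end holds a sequence repeated in other genes, and of Tgif2, whose 3' end overlaps an opposite-strand transcript, are uncertain. Without trSrebf1 replicate 1 it was 0.0793 for Nedd4l, 0.180 for Ski and 0.173 for Tgif2, and without control replicate 3 it was 0.0506, 0.0891 and 0.126 in that order. Without trSrebf1 replicate 3 it was 0.127 for Nedd4l and 0.0926 for Tgif2. The signal carriers did not pass the threshold, Smad2 at 0.46 (SE 0.27, edgeR adjusted p = 0.228) and Smad3 at 0.52 (SE 0.19, edgeR adjusted p = 0.0522).

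Of 23 tested genes used as readouts of TGF-beta signalling in fibroblasts, 11 fell (47.8%, beside 13.0% of all tested genes) and 2 rose (8.7%, beside 17.2%), with a median log2 fold change of -0.35. Smooth muscle actin (Acta2) averaged 28.0 ± 3.68 CPM in trSrebf1 and 104 ± 18.0 CPM in control (SD, n = 3 each), and the actin-binding Tagln fell by 1.28 (SE 0.12), with 3' overlaps on the opposite strand. The cadherin Cdh11 fell by 0.87 (SE 0.12). Ctgf, a classic early target named after its values were seen, fell by 0.90 (SE 0.16). The members that rose were the matrix protein Tgfbi, by 2.71 (SE 0.26), and, named after its values were seen, the cell cycle inhibitor Cdkn2b, at 61.2 ± 1.80 CPM in trSrebf1 and 39.8 ± 6.72 CPM in control (SD, n = 3 each). The other 10 did not pass the threshold. Among them were Col1a1 at 0.12 (SE 0.10), Lox at -0.14 (SE 0.17), Postn at -0.20 (SE 0.13) and Tnc at -0.07 (SE 0.13). The rest were Timp1, Snai2, Klf10, Tsc22d1, Bhlhe40 and Il11. The collagen genes Col1a2 and Col3a1 were among the falls, at -0.47 (SE 0.10) and -0.77 (SE 0.13). So was Junb, whose call was lost in 5 of 15 alternatives.

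**Figure D4:**
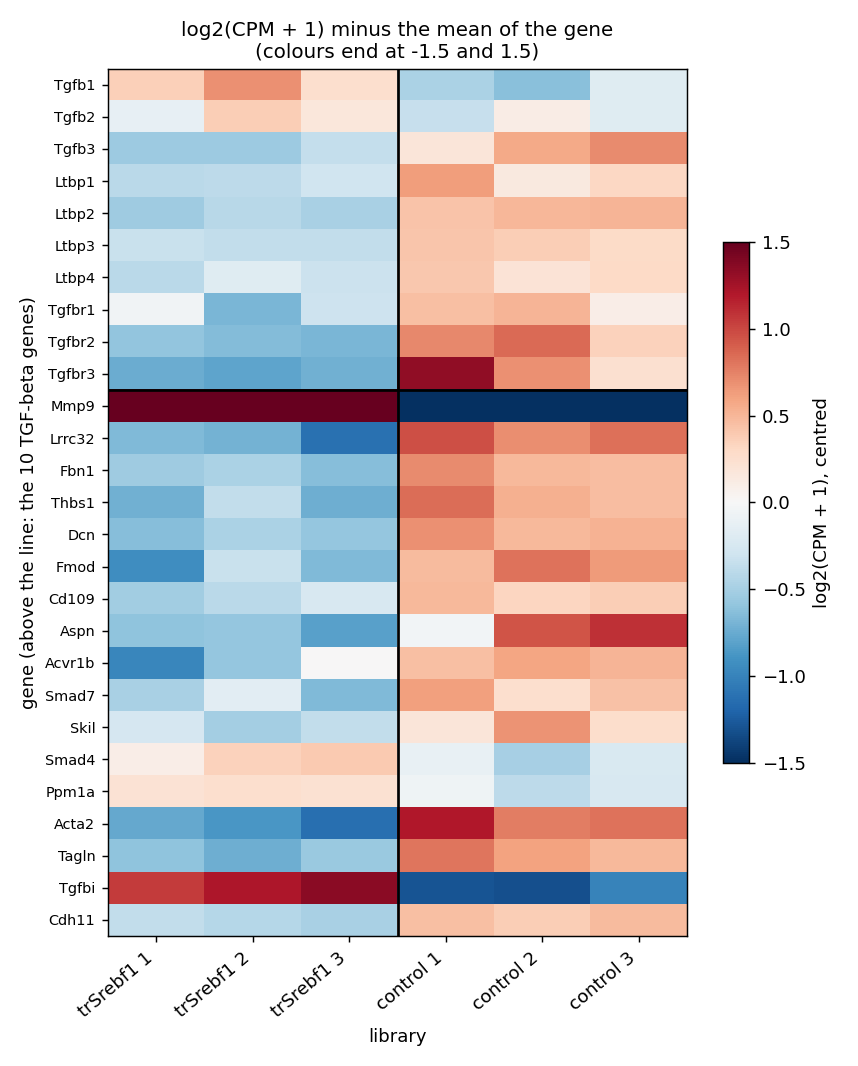
Log2(CPM + 1) of each gene minus its mean over the 6 libraries (colour, ending at -1.5 and 1.5), with trSrebf1 libraries on the left and control libraries on the right; rows above the line are the 10 TGF-beta genes, those below the 17 pathway genes named by rule. Tgfb1 shares its direction with Mmp9, Smad4, Ppm1a and Tgfbi, and Tgfbr3 is highest in control replicate 1.

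Other cells of the lung also express these genes, and their markers were summed per library. Macrophage markers summed to 4.30 to 17.8 CPM in trSrebf1 and 8.96 to 48.0 CPM in control, most of it from C1qa at 8.22 CPM in trSrebf1 and 20.9 CPM in control. Of the 10 macrophage markers 7 had a row, Ptprc, Adgre1 and Marco having none, and the 1 tested did not pass the threshold. Platelet markers summed to 1.02 to 3.65 CPM in trSrebf1 and 2.59 to 6.03 CPM in control, with 3 of 5 having a row and Pf4 at 0.502 CPM in trSrebf1 and 2.14 CPM in control.

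Lymphocyte markers, 3 of 8 with a row, summed to at most 1.83 CPM in trSrebf1 and 0.516 CPM in control. Ms4a1 was at 0 in all trSrebf1 and Foxp3 at 0 in all control libraries. The endothelial sum, 6 of 7 with a row, was 0.860 to 2.06 CPM in trSrebf1 and 1.18 to 1.81 CPM in control. Pecam1, Cdh5 and Tek were at 0 in all trSrebf1 libraries and Cldn5 at 0 in all control libraries. Epithelial markers, all 8 with a row, summed to 7.31 to 21.8 CPM in trSrebf1 and 7.87 to 14.2 CPM in control, led by Sftpb at 8.09 CPM in trSrebf1 and 6.23 CPM in control.

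Mesothelial markers, all 5 with a row, summed to 9.14 to 15.9 CPM in trSrebf1 and 17.8 to 24.1 CPM in control, led by Krt19 at 5.53 CPM in trSrebf1 and 12.3 CPM in control, and 1 of 2 tested was lower. For neutrophils a single marker of 5, Csf3r, had a row, at 8.39 CPM in trSrebf1 and 8.43 CPM in control. Pericyte and smooth muscle markers, all 8 with a row, summed to 211 to 244 CPM in trSrebf1 and 109 to 121 CPM in control. Cspg4 stood at 121 CPM in trSrebf1 and 16.4 CPM in control and Des at 84.2 CPM in trSrebf1 and 59.8 CPM in control, while 3 of the 6 tested members of that list were lower and 2 higher. The part of these markers in the results was not tested.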

How the data were processed

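The files the authors deposited hold raw whole-number counts for 19865 gene symbols, a file for each library. Per the submitters' processing notes, Bowtie2 2.2.5 and the mm10 build were used, in steps the notes do not spell out. How tags were assigned to genes, with which annotation and whether by strand, is not given in the sources used here. The test on counts was that of edgeR 4.0.16 (R 4.3.3): TMM factors, filterByExpr (minimum count 10, minimum total 15), robust glmQLFit and glmQLFTest, group as the only term, Benjamini-Hochberg adjustment over 10194 genes, two-sided, threshold 0.05. The SE is the log2 fold change divided by the square root of F, and prior count was 0.125. CPM use the TMM-scaled library sizes.

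The members and gene lists were chosen with earlier results of these data known. Genes named in the text are the 10 members, up to 4 called genes per pathway list by smallest p, the 3 nearest profiles of 3 members and the leading markers of other cell types. All other genes, those given as not passing the threshold among them, were named after their values were seen. Between libraries of a group, chi-square divided by its degrees of freedom was 4.52 to 8.13, where sampling alone gives about 1, so none was treated as a copy. The test was also run on simulated counts in which all genes shared the same variability between libraries. Such counts are simpler than these data, so the run does not vouch for the p-values given here. Positions and overlaps are from GENCODE M21 (GRCm38, the mm10 assembly). Of the 10 members, 0 had a match of 50 or more bases at 95% identity in another gene within the last 500 bases (BLAST 2.17.0), and 5 share exonic bases with another gene, 2 of them within those last bases. Tag counts depend on how well each 3' end is captured, so levels of different genes were not tested against one another. Sums and ratios over genes are given as description only. Tags carry no molecular identifiers, so amplification error cannot be told apart from other variation between libraries. Intervals do not cover an error shared by all libraries of a group. Protein sequences were not used here. Alternatives were other scalings, filters, DESeq2 1.42.0, limma-voom (limma 3.58.1), a replicate block, leaving out Ctsd, and leaving out each library.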

Additional observations from a re-analysis of the deposited data

How the results depend on the processing

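Over 15 alternatives, 9 of the 10 genes kept their direction and their side of the threshold in every one. The exception, Tgfbr1, kept its direction in 15 and its call in 8. Rises among the 10 genes numbered 1 throughout, and falls 7 or 8. Over all tested genes 1535 to 1977 were higher and 1060 to 1649 lower. The list counts that moved by over 1.5 times were small. Activin and BMP receptors had 2 lower with no filter on low counts, against 1, and 1 to 2 when single libraries were left out. Smads and regulators had 2 to 4 higher and 2 to 4 lower when single libraries were left out, against 4 and 4. The cause was not tested.

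With the replicate block, the adjusted p of Tgfbr1 was 0.0618 (log2 fold change -0.77), and the counts of the 10 genes were 1 higher and 7 lower. The same-numbered libraries did not deviate together (correlations of 0.00, -0.12 and -0.06 over genes), so the numbers are not taken as pairs. Depth limits Tgfbr1 most, with 20 to 50 tags per library, and then Tgfbr2 with 48 to 140.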

Other observations

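Other ligands of the TGF-beta superfamily and their soluble antagonists were looked up after the first results, from a list of 20 symbols of which 16 had a row and 9 were tested. Of these 3 were higher and 5 lower in trSrebf1 (edgeR, adjusted p under 0.05), beside 17.2% higher and 13.0% lower among all tested genes. Gdf11, an activin-like ligand that signals through Smad2 and Smad3, stood at 53.1, 42.6 and 60.5 CPM in trSrebf1 libraries and at 7.08, 4.64 and 5.43 CPM in control libraries. Every trSrebf1 library was far above every control library, and Gdf11 rose by 3.19 on the log2 scale (SE 0.22, edgeR adjusted p = 4.17e-09). Lefty1, an inhibitor of Nodal signalling, rose by 1.63 (SE 0.44, edgeR adjusted p = 0.00907), and its 3' end shares 60 identical bases with Lefty2. Lefty1 had few tags, 15, 26 and 23 in trSrebf1 libraries and 8, 5 and 6 in control libraries. Gdf15, a stress-induced ligand, had a log2 fold change of 1.21 (SE 0.42, edgeR adjusted p = 0.0356). The groups overlapped, and its call was lost in 6 of 14 alternatives, 4 of which left out a library: trSrebf1 replicate 1 (edgeR adjusted p = 0.0761) or 3 (0.177), or control replicate 1 (0.102) or 2 (0.133). The adjusted p lay between 0.0113 and 0.177 over the alternatives.

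The activin-binding antagonists fell. Fst stood at 17.6, 16.7 and 16.9 CPM in trSrebf1 libraries and at 38.8, 32.0 and 22.6 CPM in control libraries, a fall of 0.86 on the log2 scale (SE 0.20, edgeR adjusted p = 0.00349). Fstl3 fell by 1.15 (SE 0.19), and its 3' end overlaps Prss57 on the opposite strand. Fstl1, a secreted glycoprotein named for its follistatin-like domain, averaged 13512 ± 1105 CPM in trSrebf1 and 25998 ± 2442 CPM in control (SD, n = 3 each). Gdf10 fell by 2.08 (SE 0.37), and its count is uncertain, since 53 bases of its 3' end match Gm45301 at 96.2% identity and 11 genes in all hold such a match. Gdf6 had 2, 2 and 3 tags in trSrebf1 libraries and 27, 11 and 14 tags in control libraries, a log2 fold change of -2.95 (SE 0.58). Inhba, which encodes the activin A chain, had a log2 fold change of -0.56 (SE 0.26, edgeR adjusted p = 0.117), and passed the threshold without control replicate 1 (adjusted p = 0.0359, the lowest of its alternatives, with 0.382 the highest). Over the alternatives 1 to 3 of the list were higher and 4 to 6 lower. The single rise stood under the filter of 5 CPM in 3 libraries, which Lefty1 and Gdf15 did not pass.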
